A study of Mus musculus with 6 samples.

Results

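The D-type cyclins, their 2 kinases and the inhibitors that restrain cyclin-dependent kinases were followed in MC3T3-E1 cells, a mouse pre-osteoblast line derived from calvaria. The set held 10 genes, matched by symbol among 26187 gene rows. They were the 3 D-type cyclins Ccnd1, Ccnd2 and Ccnd3, the 2 kinases Cdk4 and Cdk6, the 3 CIP/KIP inhibitors Cdkn1a, Cdkn1b and Cdkn1c, and the 2 INK4 inhibitors Cdkn2a and Cdkn2c. Both groups of cells were kept in the same osteoconductive (OC) medium with β-glycerophosphate and ascorbic acid. The 3 PAKG libraries came from cells given PAKG–8diol–PEG(S) MPs for 2 days at 30 μg/mL. These are small microparticles of a polyester that contains α-ketoglutarate, 1,8-octanediol and polyethylene glycol. The 3 OC libraries came from cells that received no microparticles. All libraries came from 1 line at 1 dose and 1 time, and no group received microparticles without α-ketoglutarate, so the metabolite, the diol, the glycol and the uptake of particles cannot be told apart. The labels do not say whether replicates were separate cultures, so p-values here measure the spread between these libraries, which may be technical.

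D-type cyclins are made when growth factors and adhesion call cells into the cycle. Each binds Cdk4 or Cdk6, and the active pair phosphorylates the retinoblastoma protein and its relatives, which frees E2F factors to switch on genes for DNA replication. INK4 proteins hold Cdk4 and Cdk6 apart from the cyclins. CIP/KIP proteins block the Cdk2 complexes that act next, and they are also carried by cyclin D complexes. In the osteoblast lineage, leaving the cycle accompanies maturation from a dividing pre-osteoblast to a matrix-producing cell.

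Expression was measured as FPKM, fragments per kilobase of transcript, scaled to the mapped fragments of the library. FPKM are per length, so levels of different genes can be set side by side. Library sums were 289675.9 to 325818.2 FPKM, and spacing of the low values placed depth at about 32300000 to 41700000 fragments. Mitochondrial genes held 10.84% to 11.88% of the summed FPKM in OC and 9.53% to 10.71% in PAKG, lower in each PAKG library, and the part of this in the lower Ccnd2, Ccnd1 and Cdkn2c was not tested. Replicate 2 of both groups stood apart from replicates 1 and 3 on the second principal component, which held 25.1% of the variance. Log2 fold changes are PAKG minus OC on log2(FPKM + 0.1), from limma, and a gene was called at a Benjamini-Hochberg adjusted p under 0.05 over the 12590 genes whose mean over the libraries reached 0.5 FPKM.

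PAKG cells had lower mRNA of Ccnd2, Cdkn2c and Ccnd1, and the other 5 members that could be tested were not called. Ccnd2 fell by 1.13 on the log2 scale, Cdkn2c by 0.42 and Ccnd1 by 0.28. Thus 3 of the 8 tested members were called lower, where 8.73% of all genes tested were, and 0 were called higher, where 5.97% of all genes tested were. At an unadjusted p under 0.05, 0 members were higher as well. Cdkn1c and Cdkn2a did not reach 0.5 FPKM and were not tested. Ccnd2 was the 1 member that also reached the fold change of 2, a mark that 0.58% of all genes tested reached in the lower direction. In 4 of the 8 tested members each PAKG library lay below each OC library, as in 19.6% of all genes tested. The median log2 fold change of the tested members was −0.20, against −0.03 over all genes tested.

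**Figure D1:**
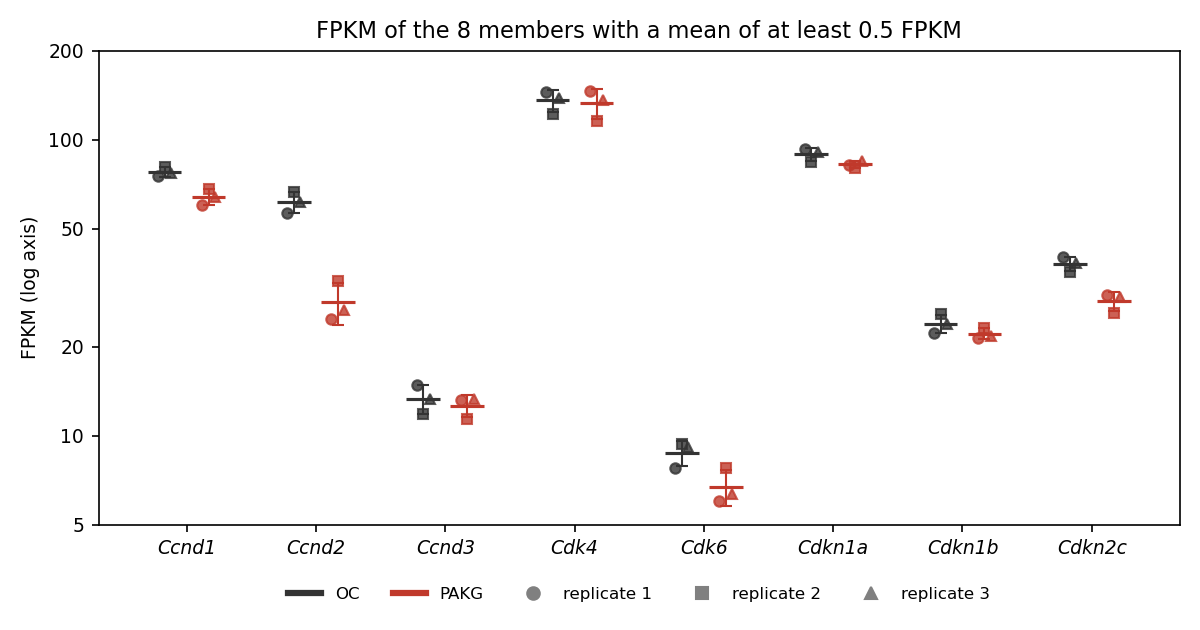
FPKM (log axis) of the 8 tested members in the 3 OC (grey) and 3 PAKG (red) libraries, with 1 point per library, its shape giving the replicate, a line at each group mean and whiskers of 1 SD. The points of Ccnd1, Ccnd2, Cdk6 and Cdkn2c separate by group, those of Ccnd3, Cdk4, Cdkn1a and Cdkn1b overlap. Cdkn1c and Cdkn2a are not drawn.

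Ccnd2 (ENSMUSG00000000184, GRCm38 chromosome 6, 127125162 to 127152193, minus strand), the D-type cyclin most tied to growth signals through PI3K in several tissues, changed the most. It measured 56.44, 66.61 and 61.5 FPKM in OC replicates 1, 2 and 3, and 24.76, 33.26 and 26.56 FPKM in PAKG replicates 1, 2 and 3. The highest PAKG library lay well under the lowest OC library, and replicate 2 was the highest of each group. The means were 61.5 ± 5.09 (SD, n = 3) in OC and 28.2 ± 4.48 (SD, n = 3) in PAKG, a drop of 54.2%. The log2 fold change was −1.13 (SE 0.12, 95% interval −1.41 to −0.85, limma adjusted p = 0.00126), which placed Ccnd2 at the 0.596 percentile of all genes tested. The call held in each of the 17 alternative settings.

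Ccnd1 (ENSMUSG00000070348, GRCm38 chromosome 7, 144929931 to 144939925, minus strand), the D-type cyclin that answers to mitogens and to Wnt signals, was the most abundant of the 3. Its OC libraries gave 75.24, 81.12 and 77.24 FPKM and its PAKG libraries 60.35, 68.16 and 63.98 FPKM. The groups did not overlap, and replicate 2 was again the highest of each. From 77.9 ± 2.99 to 64.2 ± 3.91 FPKM (SD, n = 3 each) the level fell by 17.6%, with a log2 fold change of −0.28 (SE 0.07, 95% interval −0.45 to −0.11, limma adjusted p = 0.0412). This call rested on a narrow margin. Leaving out PAKG replicate 1 gave a limma adjusted p of 0.128, and PAKG replicate 3 one of 0.158. Leaving out OC replicates 1, 2 and 3 in turn gave limma adjusted p of 0.0869, 0.106 and 0.127. The limma adjusted p was 0.151 when the libraries were rescaled to a common total.

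Ccnd3 (ENSMUSG00000034165, GRCm38 chromosome 17, 47505051 to 47599691, plus strand), the D-type cyclin found most widely in differentiated tissue, was not called. OC libraries held 14.78, 11.81 and 13.29 FPKM and PAKG libraries 13.22, 11.39 and 13.32 FPKM. The groups overlapped, and here replicate 2 was the lowest of each. The log2 fold change was −0.07 (95% interval −0.31 to 0.17, limma adjusted p = 0.721), so the interval still allowed a modest difference either way.

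The make-up of the D-type cyclin mRNA pool differed between the groups. Summed over the 3 genes, the pool was 146, 160 and 152 FPKM in the OC libraries and 98.3, 113 and 104 FPKM in the PAKG libraries. The means were 153 and 105 FPKM, a difference (PAKG minus OC) of −47.7 FPKM. Of that difference Ccnd2 made up 69.9%, Ccnd1 28.7% and Ccnd3 1.36%. Ccnd1 therefore took a larger share of a smaller pool, at 51.4%, 50.8% and 50.8% in OC and 61.4%, 60.4% and 61.6% in PAKG. That share stood at 51.0% ± 0.316 in OC and 61.1% ± 0.627 in PAKG (SD, n = 3 each), and leaving out any 1 library kept the difference between 9.89 and 10.5 percentage points. The share of Ccnd2 was 38.5%, 41.8% and 40.5% in OC and 25.2%, 29.5% and 25.6% in PAKG.

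Shares and ratios within a library do not depend on how that library was scaled. The ratio of Ccnd2 to Ccnd1 was 0.75, 0.821 and 0.796 in OC and 0.41, 0.488 and 0.415 in PAKG. All 3 PAKG ratios lay below all 3 OC ratios, by 0.85 on the log2 scale. A two-sided exact permutation test gave p = 0.1, the smallest value that 3 libraries against 3 allow. Full separation of the groups fixes that value, so the test adds nothing to the separation itself.

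**Figure D2:**
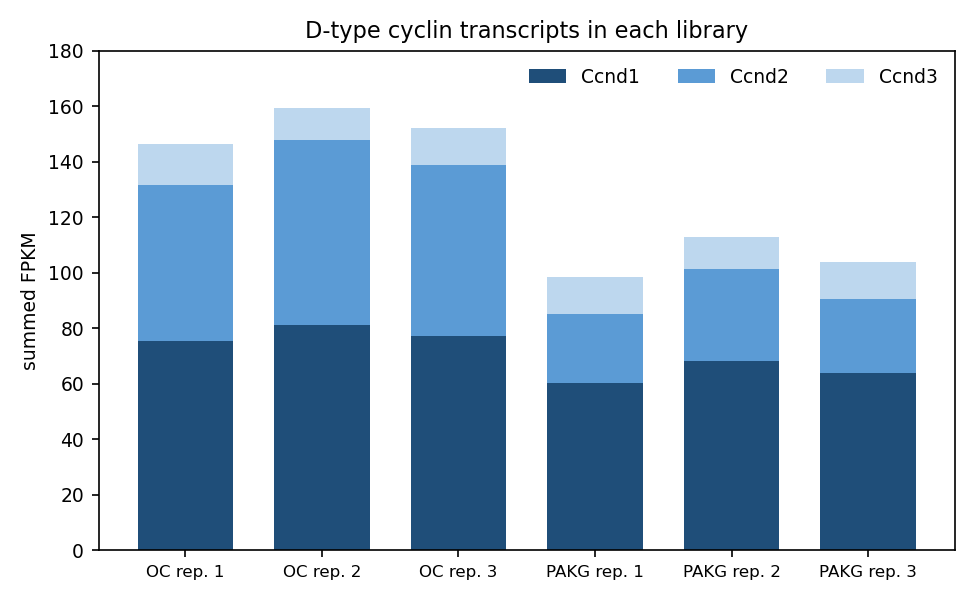
Summed FPKM of the D-type cyclins in each of the 3 OC and 3 PAKG libraries, as stacked bars that start at 0, with Ccnd1 at the bottom, Ccnd2 in the middle and Ccnd3 on top. The bars reach 146 to 160 FPKM in OC and 98.3 to 113 FPKM in PAKG, and the Ccnd2 segment differs the most, at 56.44 to 66.61 FPKM in OC and 24.76 to 33.26 FPKM in PAKG.

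Cdk4 (ENSMUSG00000006728, GRCm38 chromosome 10, 127063534 to 127067920, plus strand), the catalytic partner of D-type cyclins in most mesenchymal cells, was not called. It was the most abundant member in both groups, at 145.32, 122.6 and 138.91 FPKM in OC and 145.99, 115.43 and 136.46 FPKM in PAKG. The values of the groups interleaved, and replicate 2 was the lowest of each. The log2 fold change was −0.04 (95% interval −0.29 to 0.22, limma adjusted p = 0.874), and its sign changed with scaling and with single libraries left out.

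Cdk6 (ENSMUSG00000040274, GRCm38 chromosome 5, 3341485 to 3531008, plus strand), the alternative partner, lay far lower. Its libraries gave 7.78, 9.33 and 9.18 FPKM in OC and 6.02, 7.75 and 6.34 FPKM in PAKG. The groups came close but did not overlap, since PAKG replicate 2 at 7.75 sat just under OC replicate 1 at 7.78. The log2 fold change was −0.39 (SE 0.12, 95% interval −0.66 to −0.11, limma adjusted p = 0.0713), which missed the threshold. With the replicate number as a block the same difference had a limma adjusted p of 0.0113, and 4 members were then called lower, where 17.1% of all genes tested were. Without PAKG replicate 2 the log2 fold change was −0.49 (limma adjusted p = 0.0174), and without replicate 2 of both groups it was −0.45 (limma adjusted p = 0.0262). Cdk6 made up 5.08%, 7.07% and 6.2% of the summed kinase FPKM in OC and 3.96%, 6.29% and 4.44% in PAKG, and these ranges overlapped.

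Neither of the CIP/KIP inhibitors that could be tested was called. Cdkn1a (ENSMUSG00000023067, GRCm38 chromosome 17, 29090976 to 29100727, plus strand) encodes p21, a target of p53 that also rises in many cells leaving the cycle. It measured 93.07, 84.3 and 90.65 FPKM in OC and 82.28, 80.53 and 84.69 FPKM in PAKG. PAKG replicate 3 reached just above OC replicate 2, so the groups overlapped. The log2 fold change of Cdkn1a was −0.11 (95% interval −0.27 to 0.04, limma adjusted p = 0.325).

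Cdkn1b (ENSMUSG00000003031, GRCm38 chromosome 6, 134920401 to 134925513, plus strand) encodes p27, which is governed largely through the stability of its protein. OC libraries held 22.24, 25.74 and 23.86 FPKM and PAKG libraries 21.44, 23.19 and 21.73 FPKM. The groups overlapped, and replicate 2 was the highest of each group. The log2 fold change was −0.11 (95% interval −0.29 to 0.07, limma adjusted p = 0.395).

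Cdkn1c (ENSMUSG00000037664, GRCm38 chromosome 7, 143458339 to 143461050, minus strand) encodes p57, an imprinted inhibitor of growth in embryonic tissues. It was listed at 0 in 5 libraries and at 0.03 FPKM in PAKG replicate 1, about 2.5 fragments at the estimated depth. At that depth 3 fragments on this gene would read 0.035 to 0.046 FPKM, and with all libraries under that level no fold change is given.

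Among the INK4 inhibitors of the set, Cdkn2c (ENSMUSG00000028551, GRCm38 chromosome 4, 109660876 to 109667189, minus strand) was the member that could be tested. It encodes p18, which binds Cdk6 and Cdk4. Its libraries gave 40.13, 35.8 and 38.37 FPKM in OC and 29.79, 25.96 and 29.46 FPKM in PAKG. The groups were well apart, and replicate 2 was the lowest of each. From 38.1 ± 2.18 to 28.4 ± 2.12 FPKM (SD, n = 3 each) the level fell by 25.5%, with a log2 fold change of −0.42 (SE 0.08, 95% interval −0.61 to −0.23, limma adjusted p = 0.0138). The call missed the threshold when PAKG replicate 3 was left out (limma adjusted p = 0.0504), as it did for OC replicate 1 (0.0559) and OC replicate 3 (0.0655). The ratio of Cdk4 to Cdkn2c was 3.62, 3.42 and 3.62 in OC and 4.9, 4.45 and 4.63 in PAKG, with no overlap.

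Cdkn2a (ENSMUSG00000044303, GRCm38 chromosome 4, 89274471 to 89294653, minus strand) encodes the INK4 protein p16 and, from an upstream first exon in another reading frame, the p53 activator Arf. It was listed at 0 in 5 libraries and at 0.05 FPKM in OC replicate 3, about 2.2 fragments. All libraries lay under 0.061 to 0.079 FPKM, the worth of 3 fragments, so no fold change is given here either. The transcript listed for this gene in the deposited values was the Arf form alone, so the p16 form was not analysed here.

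Promoter windows of 300 bases, from 250 before to 50 after a RefSeq start, were held for 7 of the 10 members, in 11 windows on GRCm38.p6. Cdkn2c is shown because it was the 1 called member with such windows, and the upstream Cdkn2a window because it was the 1 window among the 11 with a match to an E2F octamer (TTTGGCGC, TTTCCCGC, TTTCGCGC or TTTGCCGC on either strand). Capitals mark that octamer and the GC box, GGGCGG on either strand, a motif bound by SP factors. Each is printed 5′ to 3′ on the minus strand.
Cdkn2c upstream start, chr4:109666707-109667006: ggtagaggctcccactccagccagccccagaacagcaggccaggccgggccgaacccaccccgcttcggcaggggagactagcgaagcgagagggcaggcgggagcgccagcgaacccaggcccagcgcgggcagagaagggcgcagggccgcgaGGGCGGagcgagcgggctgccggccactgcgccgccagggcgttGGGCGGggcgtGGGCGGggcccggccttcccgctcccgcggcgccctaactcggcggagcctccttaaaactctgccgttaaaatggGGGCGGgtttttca
Cdkn2c downstream start, chr4:109665323-109665622: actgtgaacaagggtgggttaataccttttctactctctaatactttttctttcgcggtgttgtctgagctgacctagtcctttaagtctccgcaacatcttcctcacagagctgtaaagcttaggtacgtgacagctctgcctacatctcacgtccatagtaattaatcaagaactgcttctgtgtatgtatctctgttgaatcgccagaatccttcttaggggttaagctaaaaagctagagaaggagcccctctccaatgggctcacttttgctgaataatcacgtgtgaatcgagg
Cdkn2a upstream start, chr4:89294570-89294869: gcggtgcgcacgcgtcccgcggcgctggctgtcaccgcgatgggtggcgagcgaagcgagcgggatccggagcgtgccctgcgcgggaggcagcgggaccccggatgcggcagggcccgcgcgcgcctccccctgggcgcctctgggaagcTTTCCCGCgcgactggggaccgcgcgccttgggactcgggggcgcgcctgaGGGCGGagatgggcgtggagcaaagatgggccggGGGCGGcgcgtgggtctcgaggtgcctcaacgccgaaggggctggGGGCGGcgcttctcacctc

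The 2 Cdkn2c windows were unlike each other. The upstream window held 4 GC boxes in a sequence of 73.3% G and C, and the downstream window held 0 GC boxes at 44.0% G and C. The Cdkn2a window held 3 GC boxes and 1 E2F octamer at 77.0% G and C. A GC box was found in 8 of the 11 windows of members and in 35.7% of 32851 windows of mouse genes, and an E2F octamer in 1 of the 11 and in 2.26% of all windows. These matches describe letters in a window and say nothing of binding in these cells.

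By level, both groups opened with the same 3 members, Cdk4, Cdkn1a and Ccnd1. In OC the order went on through Ccnd2, Cdkn2c, Cdkn1b, Ccnd3 and Cdk6, and no neighbours among these 8 had overlapping ranges. In PAKG, Ccnd2 at a mean of 28.2 FPKM came level with Cdkn2c at 28.4 FPKM, with overlapping ranges, and the rest of the order was as in OC. The ratio of cyclins to inhibitors was lower in each PAKG library than in each OC library. The summed D-type cyclins over the summed inhibitors gave 0.942, 1.09 and 0.994 in OC and 0.736, 0.87 and 0.764 in PAKG. Summed inhibitors themselves were 155, 146 and 153 FPKM in OC and 134, 130 and 136 FPKM in PAKG. Both quantities sum the inhibitors of the set alone and leave out the INK4 gene Cdkn2d, with means of 22.5 FPKM in OC and 17.3 FPKM in PAKG. These are mRNA ratios and hold no measure of protein, phosphorylation or complex formation.

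**Figure D3:**
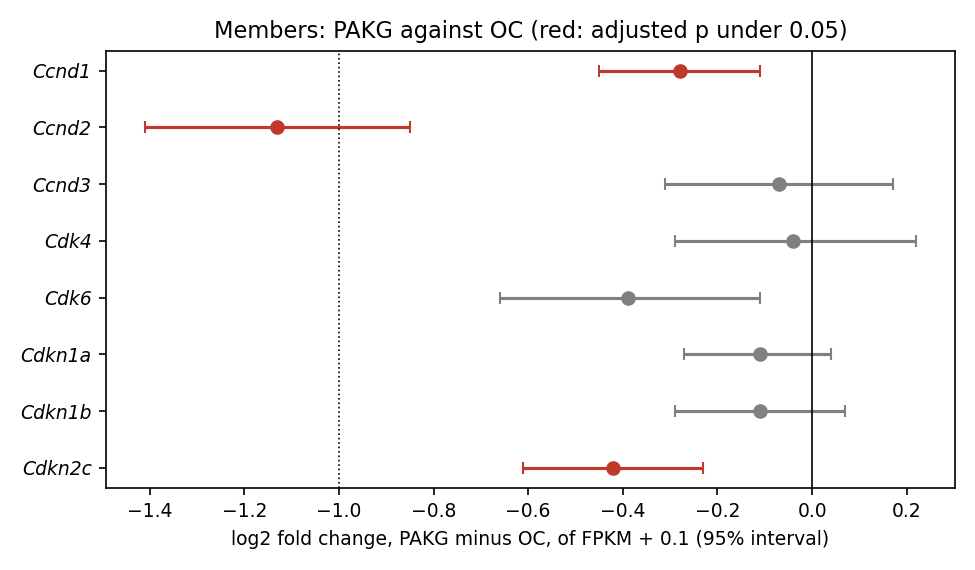
Log2 fold change (PAKG minus OC, log2(FPKM + 0.1)) of the 8 tested members, with 95% intervals from limma, red where the limma adjusted p was under 0.05, a solid line at 0 and a dotted line at a fold change of 2 downward. Ccnd2 lies at −1.13, Cdkn2c at −0.42, Cdk6 at −0.39 and Ccnd1 at −0.28, and the intervals of Ccnd3, Cdk4, Cdkn1a and Cdkn1b cross 0. All 8 estimates are negative here, as are 6989 of the 12590 genes tested. That of Cdk4 becomes 0.01 after rescaling to a common total, and those of Cdk4 and Ccnd3 turn positive without PAKG replicate 2 or OC replicate 1.

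Replicate 2 stood at the edge of its group for each tested member. In all 8 tested members it was the highest library of both groups or the lowest of both, a pattern met in 58.4% of all genes tested. Against replicates 1 and 3 it stood higher for Ccnd2 by 0.18 (OC) and 0.37 (PAKG) on the log2 scale, and for Cdk6 by 0.14 and 0.32. It stood lower for Cdk4, by −0.21 in OC and −0.29 in PAKG, and for Cdkn2c, by −0.13 and −0.19. The members that were higher have longer exonic sequence, from 4552 bases in Cdkn1b to 13989 in Cdk6, than those that were lower, except Ccnd3 at 8775 bases. Across 12583 genes, which are not independent replicates, the deviation of replicate 2 had a Spearman correlation with exonic length of 0.53 in OC and 0.48 in PAKG, and the log2 fold change had one of −0.06. Without replicate 2 of both groups 4 members were called lower, Cdk6 joining the other 3, where 12.3% of all genes tested were called lower. With the length trend removed from each library the count was again 4, where 11.1% of all genes tested were called lower. Both shares are above the 8.73% of all 6 libraries as deposited.

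**Figure D4:**
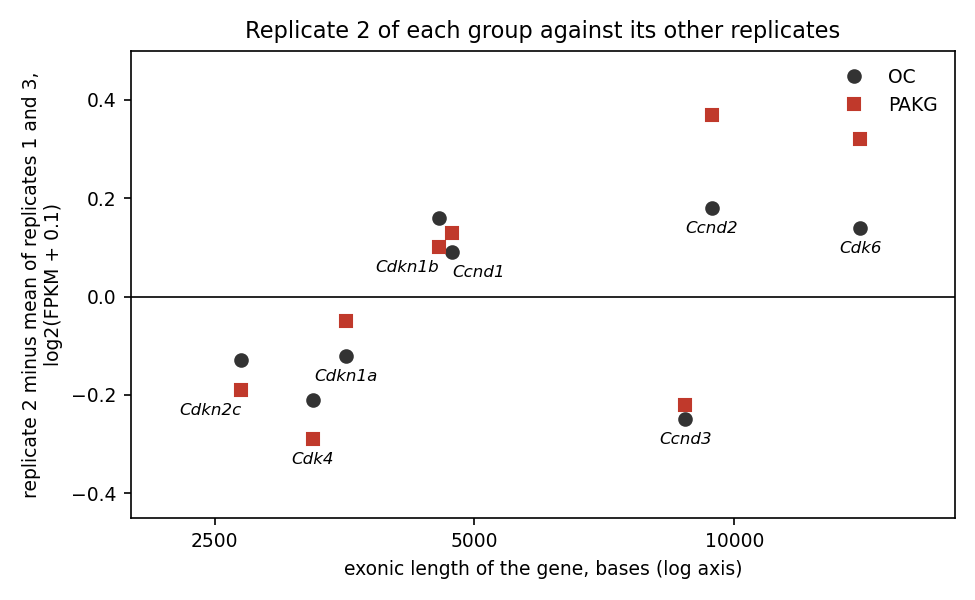
Replicate 2 minus the mean of replicates 1 and 3 (log2(FPKM + 0.1)) against the exonic length of each tested member (bases, log axis), with 1 point per member for OC and 1 for PAKG. Both points of a member share a sign in all 8, above 0 for Ccnd1, Ccnd2, Cdk6 and Cdkn1b and below 0 for Ccnd3, Cdk4, Cdkn1a and Cdkn2c.

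Genes of the pocket proteins, which D-type cyclin kinases phosphorylate, and of the E2F factors were called lower in part. Of 13 pocket proteins, E2F factors and their partners, 5 were called lower (38.5%, where 8.73% of all genes tested were) and 0 higher, with a median log2 fold change of −0.33. E2f8, a late repressor of the family, went from 5.90 ± 0.467 to 3.15 ± 0.494 FPKM (SD, n = 3 each), with a log2 fold change of −0.89 (SE 0.12, limma adjusted p = 0.00345). Its partner in that role, E2f7, had a log2 fold change of −0.76, the pocket protein gene Rbl1 one of −0.66 and the dimer partner gene Tfdp1 one of −0.41, and all 3 were called. The pocket protein genes Rb1 (log2 fold change −0.17, limma adjusted p = 0.334) and Rbl2 (0.13, limma adjusted p = 0.502) were not called.

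Of 10 genes of the cyclin E and cyclin A kinases, which take over from cyclin D complexes, 6 were called lower (60.0%) and 0 higher. Over all genes tested the shares were 8.73% lower and 5.97% higher. The median of the 10 was −0.32. Ccna2, the cyclin A of dividing cells, went from 54.2 ± 0.951 to 30.0 ± 1.33 FPKM (SD, n = 3 each), a log2 fold change of −0.85 (SE 0.06, limma adjusted p = 0.000387). Cdc25b, a phosphatase that activates these kinases, fell by 0.53 on the log2 scale, Ccne2, an E-type cyclin, by 0.44, and Cdk2 by 0.35.

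Other inhibitors and adaptors moved both ways. Of 7 tested, 2 were called lower (28.6%) and 1 higher (14.3%), with a median of −0.09, where 8.73% and 5.97% of all genes tested were. Cdkn2d, the remaining INK4 gene analysed here, measured 23.82, 20.37 and 23.42 FPKM in OC and 18.58, 15.49 and 17.96 FPKM in PAKG, without overlap (log2 fold change −0.38, SE 0.10, limma adjusted p = 0.0407). The phosphatase gene Cdkn3 fell by 0.87 on the log2 scale. Ccndbp1, whose protein binds D-type cyclins, rose by 0.39.

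Genes for turnover of D-type cyclins and CIP/KIP proteins were called in 5 of 16 cases, 4 lower and 1 higher, with a median of −0.08. That is 25.0% lower and 6.25% higher, where 8.73% and 5.97% of all genes tested were. After rescaling to a common total 3 were called lower and 0 higher, where 764 and 874 of 12588 genes were. The lower ones were Cks2 at −0.69, Dtl at −0.53, Cks1b at −0.51 and Cul1 at −0.31. Cks1b assists the ligase that removes p27, Dtl is a substrate receptor for p21, and Cul1 is the scaffold of SCF ligases. Among 19 tested regulators known to act on transcription of the members, 4 were called higher and 2 lower, and the median was 0.26. That is 21.1% higher and 10.5% lower, where 5.97% and 8.73% of all genes tested were. Tcf7, a Wnt effector, had a log2 fold change of 1.54 and Ctnnb1, which encodes β-catenin, one of 0.38. Klf4, known to activate Cdkn1a, rose by 0.53, while Ezh2, a Polycomb methyltransferase that silences Cdkn2a, fell by 0.51. The other Polycomb genes of the list did not follow Ezh2. Ring1 was called higher (log2 fold change 0.29, limma adjusted p = 0.0464), and Bmi1, Rnf2 and Cbx7 were not called. With the replicate block, 7 of the 19 regulators were called higher and 4 lower, where 12.3% and 17.1% of all genes tested were. After rescaling to a common total 5 of them were called higher and 1 lower, where 874 and 764 of 12588 genes were.

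**Figure D5:**
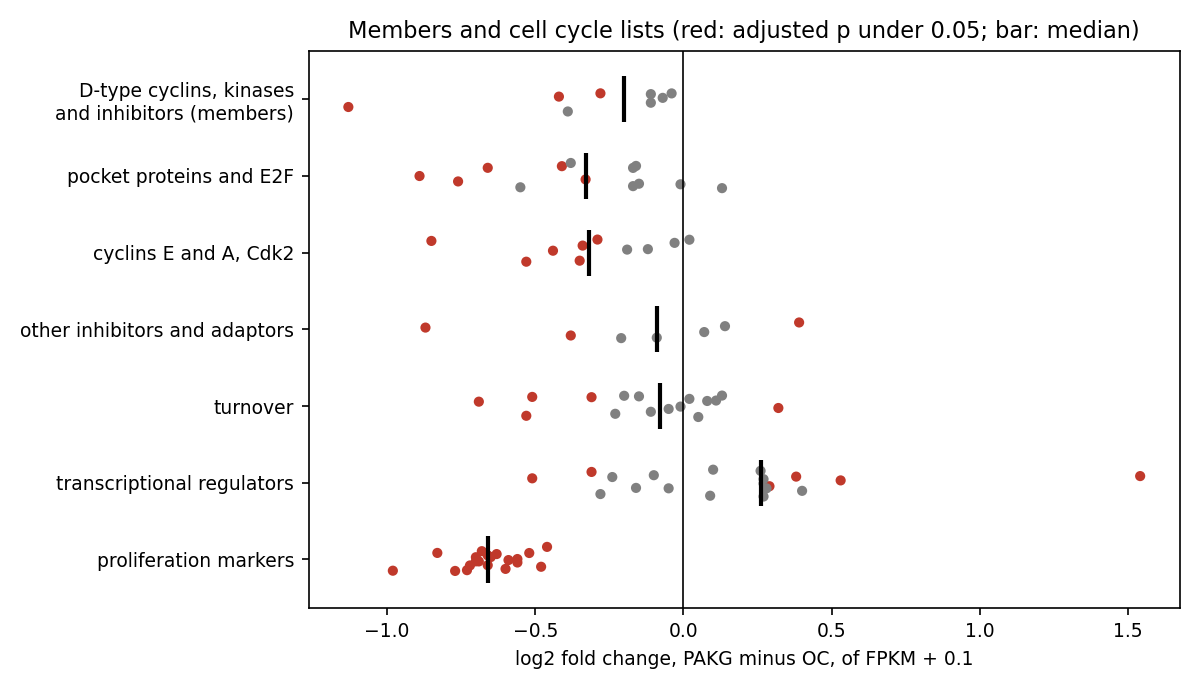
Log2 fold change (PAKG minus OC, log2(FPKM + 0.1)) of each tested member and of each tested gene in 6 lists around them, with 1 point per gene, red where the limma adjusted p was under 0.05 and grey otherwise, and a bar at each median. All 20 proliferation markers lie between −0.98 and −0.46, and the transcriptional regulators spread from −0.51 to 1.54.

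All 20 proliferation markers, a list with none of the members, were called lower, where 8.73% of all genes tested were. Their median was −0.66, with a range of −0.98 to −0.46. They were also called lower without replicate 2 of both groups, where 12.3% of all genes tested were. The same held with the replicate block, where 17.1% were, and after rescaling, where 764 of 12588 genes were. Ccnb1, the mitotic cyclin, went from 33.4 ± 1.40 to 16.9 ± 1.04 FPKM (SD, n = 3 each), a log2 fold change of −0.98 (SE 0.07, limma adjusted p = 0.00037). Mcm5 of the replicative helicase fell by 0.73, the mitotic kinase gene Plk1 by 0.72 and the ribonucleotide reductase gene Rrm2 by 0.69. Of the members, Ccnd2 alone lay below that range, and Ccnd1, Ccnd3, Cdk4, Cdk6, Cdkn1a, Cdkn1b and Cdkn2c lay above it. In bulk RNA, fewer cycling cells and less of these mRNAs in each cell cannot be told apart.

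Of 8 osteoblast markers, taken to check the labelled cell type, 7 passed the filter, all but Dmp1. Of the 7, 6 were called higher in PAKG (85.7%, where 5.97% of all genes tested were), with a median of 0.79. Their summed FPKM was 4660 to 5710 in OC and 6830 to 7580 in PAKG. Bglap, which encodes osteocalcin, had a log2 fold change of 4.36, Alpl, the tissue alkaline phosphatase, one of 1.61, Sp7 one of 1.35 and Runx2 one of 0.79. Chondrocyte markers moved with the groups too. Of 6 listed, 4 had a row, with a summed FPKM of 18.7 to 21.0 in OC and 59.9 to 62.5 in PAKG. All 3 that were tested were called higher, where 5.97% of all genes tested were. These were Col2a1 (log2 fold change 2.05), Sox9 (0.80) and Matn3 (0.65), while Col10a1 stayed at or under 0.03 FPKM. Their part in the lower Ccnd2, Ccnd1 and Cdkn2c was not tested.

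Markers of other cell types were mixed. Among macrophage genes, 2 of 4 with a row were tested, and Lyz2, at 8.51 to 11.46 FPKM in OC and 15.22 to 16.95 FPKM in PAKG, rose by 0.64 while Cd68 was not called, with summed FPKM of 9.21 to 12.1 in OC and 16.0 to 17.6 in PAKG. The defining Ptprc did not exceed 0.01 FPKM in any library, and Csf1r, under the filter and not tested, was listed at 0.09, 0.06 and 0.12 FPKM in OC and 0.29, 0.22 and 0.28 FPKM in PAKG. Both Lyz2 and Csf1r were thus higher in each PAKG library than in each OC library, and their part in the lower Ccnd2, Ccnd1 and Cdkn2c was not tested. Of 6 adipocyte genes, Cebpa alone passed the filter and was called higher (0.70), and the sums ran from 1.49 to 3.46 FPKM in OC and 2.77 to 3.44 in PAKG. Adipoq, Fabp4, Plin1 and Lep were highest in OC replicate 3, at 0.36, 0.58, 0.06 and 0.20 FPKM. Of 3 myoblast genes, Des alone was tested and was not called, Myh3 did not exceed 0.03 FPKM, and the sums were 0.63 to 0.77 FPKM in OC and 0.80 to 0.89 in PAKG.

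Several members share ground with a gene on the opposite strand. Cdk4 overlaps Tspan31 (39.71 to 46.81 FPKM), Ccnd3 overlaps Bysl (19.16 to 22.38 FPKM), and Ccnd1 overlaps LTO1 (1.8 to 2.31 FPKM). Ccnd2 overlaps the antisense gene 9330179D12Rik at 0.26 to 0.67 FPKM. The library kit kept strand, but whether the counting used it is not given in the sources used here, so fragments in these overlaps may have been assigned to either gene.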

How the data were processed

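Poly(A) RNA from MC3T3-E1 cells, 3 PAKG and 3 OC samples, was sequenced from stranded mRNA libraries. Trimming with cutadapt, quality control with FastQC, HISAT2, StringTie, DESeq2 and the build GRCm38 are named in the submitters' processing notes, where no version or setting is given. Values were deposited by the authors as FPKM, in 1 table for each library and without read counts, so limma on a log scale took the place of a count model. Samples were grouped by their treatment label.

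The 6 tables were joined on gene ID, giving 26187 rows. No library was pooled or dropped, and no value was rescaled in the main fit. FPKM were taken as log2(FPKM + 0.1). Genes whose mean reached 0.5 FPKM were fitted with limma 3.58.1 (R 4.3.3, eBayes with a mean-variance trend), with two-sided p-values adjusted by Benjamini-Hochberg over these 12590 genes, and a gene was called at an adjusted p under 0.05. A fold change of at least 2 was read beside it. Shares, sums and an exact permutation test were computed in Python 3.11.15 with scipy 1.17.1. The fit was tested on simulated data with known changes, with noise drawn for each library without a replicate effect. It called 32.0% of changes of 0.5 on the log2 scale and 72.0% of changes of 1.0. The changed genes were drawn from all genes tested, and no change under 0.5 was simulated. Smaller changes, as in most members, may also go uncalled, at a rate that was not measured for the members. Depth was estimated from the steps between low FPKM values, as a rough guide, since StringTie need not assign whole fragments. Gene positions came from the GENCODE M21 annotation of GRCm38, which held 99.76% of the gene IDs, and promoter sequences came from RefSeq (GRCm38.p6).

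Replicate numbers are shared between the groups. Deviations from the group means correlated at 0.24, 0.43 and 0.192 for libraries of the same number, and between −0.312 and 0.138 for different numbers. All same-number values were over 0.1, but so was PAKG replicate 3 with OC replicate 1, at 0.138. The labels do not say whether equal numbers mark a shared batch, so whether the numbers pair the libraries is not settled. The fit with the replicate block was an alternative, since the study's methods name no block. Other alternatives changed the pseudocount, the filter, the scaling and the variance trend or left out each library. Removing replicate 2 of both groups and removing the length trend were chosen after the data were seen.

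The text names all 10 members and, in each list, up to 4 called genes by smallest adjusted p, or the 2 with the highest mean FPKM where fewer than 2 were called. Ptprc, Col10a1, Dmp1, Plin1, Lep, Rb1, Rbl2, Ring1, Bmi1, Rnf2 and Cbx7 were named after their values were seen. The members and lists were chosen with earlier results of these data known.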

Additional observations from a re-analysis of the deposited data

How the results depend on the processing

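The 8 tested members were refitted under 17 alternatives each. Ccnd2 kept its direction and its call in all of them, and Cdkn1a and Cdkn1b stayed negative and uncalled in all of them. The number of members called lower was 3, and it was 2 without a filter on low values, after rescaling to a common total, with median-ratio scaling and without the variance trend, 4 without replicate 2 of both groups or with the length trend removed, 1 at a fold change of at least 2, and 1 to 4 with single libraries left out (1 without PAKG replicate 3, OC replicate 1 or OC replicate 3). The number of all genes called lower moved with it, from 1099 of 12590 tested in the main fit. It was 798 of 26187 without the filter and 764 of 12588 after rescaling. With median-ratio scaling it was 977 of 12578, and without the variance trend 978 of 12590. It was 1547 of 12592 without replicate 2 of both groups and 1402 of 12583 with the length trend removed. At a fold change of at least 2 it was 73, and it was 500 to 1240 with single libraries left out. For Ccnd1 the log2 fold change was −0.28 without the filter (limma adjusted p = 0.0719), −0.23 after rescaling (0.151), −0.25 with median-ratio scaling (0.0635) and −0.28 without the variance trend (0.0681), and it ran from −0.32 to −0.24 with single libraries left out. Cdkn2c ran from −0.47 to −0.36 and Cdk6 from −0.49 to −0.31 in the same way. Cdk6 was called at −0.39 with the replicate block (0.0113), at −0.45 without replicate 2 of both groups (0.0262) and at −0.37 with the length trend removed (0.0242). Cdk4 turned to 0.01 after rescaling, 0.06 without PAKG replicate 2 and 0.02 without OC replicate 1, and Ccnd3 to 0.0034 without PAKG replicate 2 and 0.0095 without OC replicate 1, in ranges of −0.11 to 0.06 and −0.15 to 0.0095 with single libraries left out. Over all genes, 1850 were called (751 higher, 1099 lower), against 3711 with the replicate block, 182 at a fold change of at least 2, and 831 to 2227 with single libraries left out. The lowest of these, 831 and 871, came without PAKG replicate 3 and OC replicate 3, and 1117 and 1113 without PAKG replicate 1 and OC replicate 1. After rescaling, 874 were called higher and 764 lower. The block changed no call of a member other than Cdk6. The causes of these changes were not tested. Without deposited counts, the counting error of each FPKM is unknown.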
